A study of Mus musculus with 14 samples.

Results

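GABA-A receptors are chloride channels that open when they bind GABA. Each channel is a ring of subunits, as a rule alpha, beta and gamma ones. The alpha and beta subunits form the GABA site, and the alpha and gamma subunits form the site of benzodiazepines. Oligodendrocyte precursor cells (OPCs) carry these receptors and receive GABAergic synapses, and GABA responses are known to decline as these cells become oligodendrocytes. The 7 subunit genes described here are Gabra2, Gabra3, Gabra4 and Gabra5 (alpha), Gabrb1 and Gabrb2 (beta) and Gabrg1 (gamma), taken by gene symbol out of the 18355 genes of the table. All 7 passed the filter on low values, a mean of at least 10 normalised counts over all libraries.

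The libraries came from brains of mice at postnatal day 8. 2aOKO mice carry floxed alleles of Mfsd2a, which encodes a lysophosphatidylcholine transporter, and a Pdgfra-driven Cre that deletes them in OPCs. 2afl/fl mice carry the floxed alleles and served as controls. From each genotype, O4 beads bound immature oligodendrocytes (O4 cells) and CD140a (Pdgfra) beads bound OPCs, with 4 2aOKO and 3 2afl/fl libraries per sort and 14 in all. The antigen of the OPC sort is thus the product of the gene whose promoter drives the Cre. The labels do not say whether libraries came from separate mice. The study counts its replicates per genotype and states that its legends count animals, but whether an O4 and an OPC library share a mouse is not given, and p-values measure the spread between these libraries.

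The normalised totals of the libraries ran from 34120823 to 41030171, and 16964 to 17662 genes were above 0. The summed level of 8 genes of myelinating oligodendrocytes separated the sorts, with 349932 to 1361130 normalised counts in the O4 libraries and 11410 to 14117 in the OPC libraries. Mfsd2a counts cover the whole gene and not only its deleted part. They averaged 6188 ± 1688 in 2aOKO OPCs and 10636 ± 4947 in 2afl/fl OPCs, and 5962 ± 1585 in 2aOKO O4 cells and 9141 ± 3281 in 2afl/fl O4 cells (SD, n = 4 and 3 in each sort). The Mfsd2a ranges of the genotypes were separate in OPCs and overlapped in O4 cells, and the difference was not called in either (limma, adjusted p = 0.9999 in OPCs and 0.999 in O4 cells).

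Of the 7 subunit genes 4 lie together. On mouse chromosome 5 (mm39) the order is Gabrg1 (70908390 to 70999960), Gabra2 (71115735 to 71253192), Gabra4 (71727077 to 71815651) and Gabrb1 (71815264 to 72306915), with Cox7b2 between Gabra2 and Gabra4. Gabrb1 is on the plus strand and the other 3 are on the minus strand. Gabra4 and Gabrb1 start head to head and overlap by 388 bases, and the sources used here do not say whether reads were counted by strand, so reads from the overlap cannot be assigned to either gene. In the GENCODE annotation their exons share 46 bases, which is 0.76% of the exon length of Gabra4 and 0.33% of that of Gabrb1. Gabra5 is on chromosome 7 (57057417 to 57159807, minus strand), and it overlaps Gm9962, a row with a mean of 2.45 normalised counts. Gabrb2 is on chromosome 11 (42310534 to 42523418, plus strand), and Gabra3 is on chromosome X (71476282 to 71700525, minus strand) between Gabre and Gabrq.

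The 250 bases before the start of Gabra3, Gabra4 and Gabrg1 are shown because these 3 were lower in O4 cells of both genotypes. The sequences are those of RefSeq on GRCm38.p6, each read 5′ to 3′ on the strand of the gene, with the outermost start where several are listed. Gabra3 has 2 listed starts. The bases after the start used for it were not found in its GENCODE transcripts, while those of Gabra4 and Gabrg1 were found in theirs. Capitals mark E-boxes (CANNTG, the motif of OLIG factors) and the SOX motifs ACAAAG and ACAATG, on either strand. The windows are chrX:72656920-72657169 for Gabra3, chr5:71658309-71658558 for Gabra4 and chr5:70842618-70842867 for Gabrg1, all on the minus strand.
Gabra3: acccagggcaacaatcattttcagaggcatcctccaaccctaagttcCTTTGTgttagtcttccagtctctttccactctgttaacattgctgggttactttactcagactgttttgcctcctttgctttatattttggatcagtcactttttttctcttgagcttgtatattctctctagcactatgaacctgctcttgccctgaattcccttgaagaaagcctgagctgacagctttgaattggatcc
Gabra4: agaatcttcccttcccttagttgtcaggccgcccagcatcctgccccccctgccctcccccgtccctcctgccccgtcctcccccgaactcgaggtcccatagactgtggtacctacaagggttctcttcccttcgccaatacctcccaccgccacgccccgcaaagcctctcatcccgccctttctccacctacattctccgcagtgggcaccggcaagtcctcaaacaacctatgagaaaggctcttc
Gabrg1: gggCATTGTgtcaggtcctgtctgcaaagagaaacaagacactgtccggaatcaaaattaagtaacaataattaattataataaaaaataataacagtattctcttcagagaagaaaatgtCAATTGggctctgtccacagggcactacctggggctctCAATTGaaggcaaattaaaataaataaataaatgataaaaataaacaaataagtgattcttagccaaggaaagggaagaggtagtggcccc

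These 3 windows had little in common. Gabrg1 had 2 E-boxes, both spelled CAATTG, and 1 ACAATG match, Gabra3 had 1 ACAAAG match and no E-box, and Gabra4 had none of the motifs. No matches overlapped each other. Their GC content was 42.4% for Gabra3, 61.2% for Gabra4 and 35.6% for Gabrg1, beside a median of 52.4% over all promoter windows. All 7 subunits matched the promoter table, and 4 of them had an E-box and 2 a SOX motif of either kind. The bases after the start used were also not found in GENCODE transcripts for Gabrb1 and Gabrb2. Over 32851 promoter windows of the same length 66.2% had an E-box and 25.2% a SOX motif of either kind. A match is only a run of letters and not a site shown to be bound.

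The plot of normalised counts by library shows the 7 subunits in all 4 groups. A normalised count is a read count divided by a size factor of its library and is not scaled to the length of the gene.

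**Figure D1:**
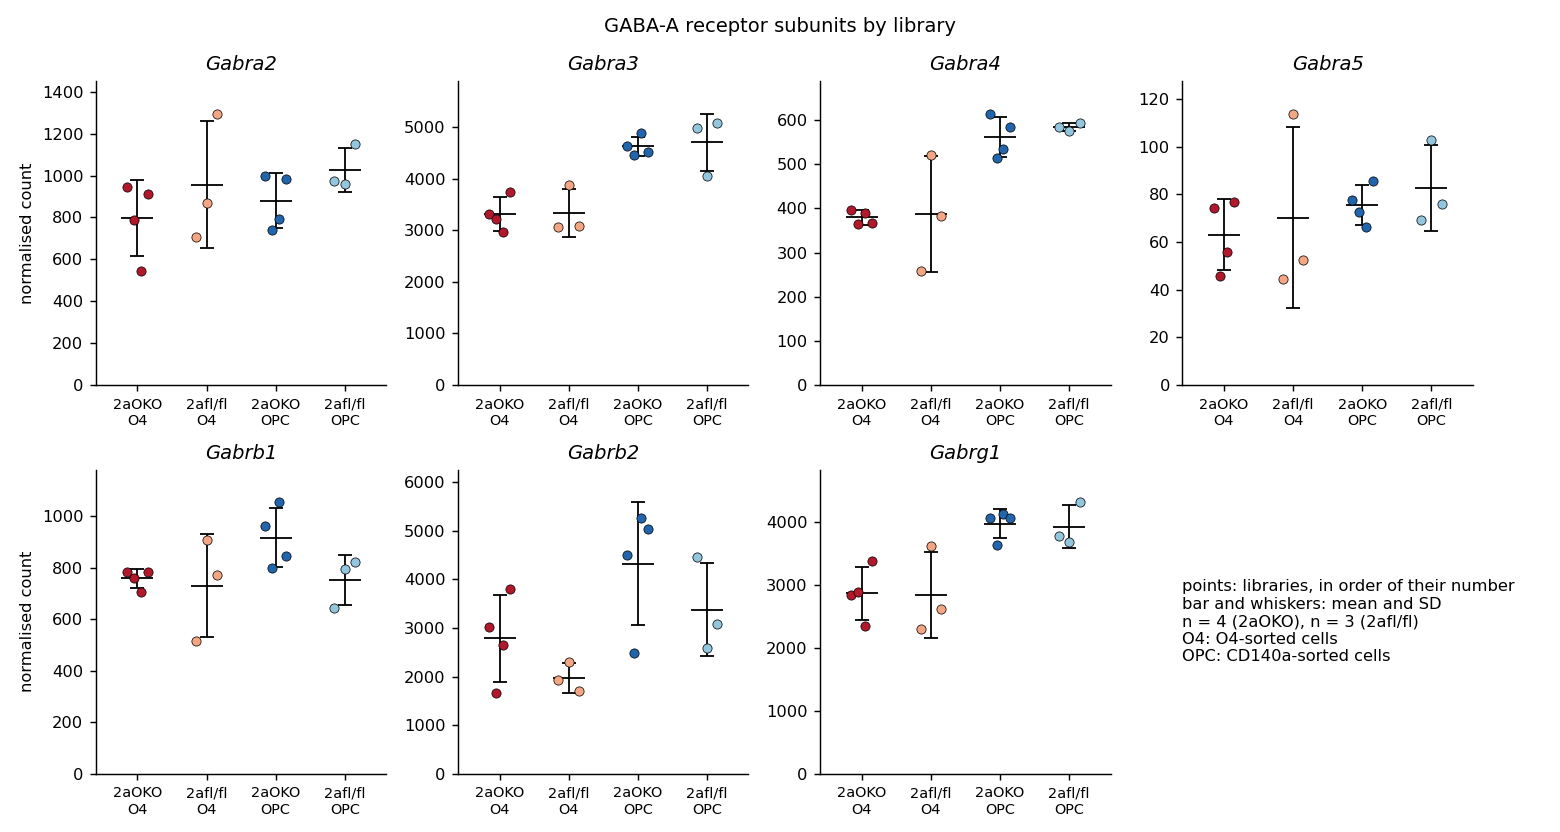
Normalised counts of the 7 subunit genes (y axis, linear, from 0) in O4 cells and OPCs of 2aOKO and 2afl/fl mice (x axis). Points are libraries and bars are means with SD (n = 4 for 2aOKO, n = 3 for 2afl/fl). For Gabra3, Gabra4 and Gabrg1 every O4 library lies below every OPC library of its genotype.

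Gabra3, Gabra4 and Gabrg1, 3 of the 7 subunits, were lower in O4 cells than in OPCs in both genotypes. Their levels in O4 cells were 0.64 to 0.72 of those in OPCs. The other 4 were not called in either genotype. All 7 estimates were below 0, with a median log2 fold change of -0.48 in 2aOKO and -0.49 in 2afl/fl, beside medians of -0.02 and -0.01 over all 15565 genes tested. The same direction held for 52.0% of all genes tested in 2aOKO and 51.3% in 2afl/fl. Calls rest on limma with Benjamini-Hochberg adjustment over all genes tested at an adjusted p under 0.05, and at that threshold 15.5% of all genes were lower and 17.6% higher in O4 cells of 2aOKO mice, and 12.2% were lower and 14.3% higher in those of 2afl/fl mice. The 3 of 7 subunits called lower stand beside these shares. Every O4 library lay below every OPC library for 4 of 7 subunits in 2aOKO and 4 of 7 in 2afl/fl, and the same held for 19% of all genes tested in 2aOKO and 16.5% in 2afl/fl.

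Gabra3, an alpha subunit known from embryonic and early postnatal brain, had 3324, 3217, 2974 and 3751 normalised counts in 2aOKO O4 libraries 1 to 4, against 4638, 4465, 4887 and 4518 in 2aOKO OPC libraries 1 to 4. It had 3056, 3877 and 3076 in 2afl/fl O4 libraries 1 to 3, against 4979, 4063 and 5075 in 2afl/fl OPC libraries. The sorts did not overlap in either genotype, and 2afl/fl O4 library 2 came closest to the OPCs. The log2 fold change, taken throughout on the log2(normalised count + 1) scale, was -0.48 ± 0.095 in 2aOKO (SE, adjusted p = 0.00158) and -0.50 ± 0.11 in 2afl/fl (adjusted p = 0.00532). Gabra3 kept its call without any single library, with adjusted p of 0.0268 at most.

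Gabrg1, a gamma subunit also expressed by glia such as Bergmann cells, had 2841, 2878, 2349 and 3377 normalised counts in 2aOKO O4 libraries, against 4062, 3625, 4122 and 4051 in 2aOKO OPC libraries. It had 2293, 3604 and 2611 in 2afl/fl O4 libraries, against 3774, 3669 and 4305 in 2afl/fl OPC libraries. The 2afl/fl sorts were separate by a narrow margin, again through O4 library 2. Its log2 fold change was -0.48 ± 0.13 in 2aOKO (adjusted p = 0.00958) and -0.49 ± 0.15 in 2afl/fl (adjusted p = 0.0241). The 2afl/fl call was lost without OPC library 3, O4 library 1 or O4 library 3, with adjusted p of 0.0776 to 0.118, and the 2aOKO call was not lost without any single library.

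Gabra4, known from extrasynaptic receptors in thalamus and dentate gyrus, had 397, 364, 390 and 367 normalised counts in 2aOKO O4 libraries, against 615, 514, 534 and 585 in 2aOKO OPC libraries. It had 259, 520 and 382 in 2afl/fl O4 libraries, against 584, 575 and 593 in 2afl/fl OPC libraries. Both genotypes again showed no overlap, and the 2afl/fl O4 libraries spread most, with a coefficient of variation of 33.8%, against 1.54% in 2afl/fl OPCs. Gabra4 had a log2 fold change of -0.56 ± 0.16 in 2aOKO (adjusted p = 0.0132) and -0.65 ± 0.18 in 2afl/fl (adjusted p = 0.0175). The 2afl/fl call was lost without OPC library 3 (adjusted p = 0.0511) or O4 library 1, where the log2 fold change was -0.39 (adjusted p = 0.0663), and the 2aOKO call was not lost without any single library. In a fit of the 2 2afl/fl groups alone none of the 3 subunits was called, with adjusted p of 0.0651 for Gabra3, 0.127 for Gabra4 and 0.106 for Gabrg1, and 1.41% of all genes were called lower there. Without all 4 libraries numbered 3, a choice made after seeing the data, 1 subunit, Gabra3, was called in 2aOKO and 0 in 2afl/fl, beside 9.3% and 2.3% of all genes called lower.

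Gabrb2, the beta subunit of the most common adult receptor, had the largest estimate of the 7 between the sorts in both genotypes. It had 3031, 1657, 2653 and 3811 normalised counts in 2aOKO O4 libraries, against 4512, 2479, 5257 and 5036 in 2aOKO OPC libraries. It had 1927, 2301 and 1697 in 2afl/fl O4 libraries, against 4456, 2599 and 3084 in 2afl/fl OPC libraries. Library 2 was the lowest in both 2aOKO sorts and in 2afl/fl OPCs, and the sorts overlapped in 2aOKO and were separate in 2afl/fl. For Gabrb2 the log2 fold change was -0.64 ± 0.26 in 2aOKO (adjusted p = 0.0741) and -0.75 ± 0.30 in 2afl/fl (adjusted p = 0.0788), so Gabrb2 was not called. It was called in 2aOKO without OPC library 2 (log2 fold change -0.88, adjusted p = 0.0125) or O4 library 4 (-0.81, adjusted p = 0.0322). O4 and OPC libraries of the same genotype and number deviated together in these data, with r of 0.16 to 0.328. This overlaps the r of 0.0604 to 0.299 for same-numbered libraries of different genotypes, and libraries of different number were not compared. With that number as a replicate block within each genotype limma called Gabrb2 in both, with adjusted p of 0.00436 in 2aOKO and 0.0056 in 2afl/fl. In that fit 19.1% and 16.3% of all genes were called lower. In all 7 same-numbered pairs Gabrb2 was lower in the O4 library, at 0.43 to 0.89 of the OPC value.

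Gabrb1, a beta subunit with known glial expression, had 784, 760, 704 and 783 normalised counts in 2aOKO O4 libraries, against 962, 799, 1053 and 846 in 2aOKO OPC libraries. It had 513, 906 and 772 in 2afl/fl O4 libraries, against 643, 794 and 822 in 2afl/fl OPC libraries. The sorts were separate in 2aOKO and overlapped in 2afl/fl. For Gabrb1 the log2 fold change was -0.26 ± 0.15 in 2aOKO (adjusted p = 0.193) and -0.07 ± 0.17 in 2afl/fl (adjusted p = 0.794), with 95% confidence intervals of -0.58 to 0.05 and -0.44 to 0.29. In a fit of the 2aOKO groups alone Gabrb1 was called, with an adjusted p of 0.041. Gabrb1 had a smaller estimate than Gabra4, the gene it meets head to head, and the difference between the 2 genes was not tested.

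Gabra2, an alpha subunit found at the axon initial segment of neurons, had 944, 787, 545 and 911 normalised counts in 2aOKO O4 libraries, against 996, 739, 794 and 986 in 2aOKO OPC libraries. It had 706, 869 and 1296 in 2afl/fl O4 libraries, against 972, 958 and 1150 in 2afl/fl OPC libraries. The sorts overlapped in both genotypes, and the O4 libraries numbered 3 were the lowest of 2aOKO and the highest of 2afl/fl. Gabra2 had a log2 fold change of -0.16 ± 0.19 in 2aOKO (adjusted p = 0.566) and -0.14 ± 0.22 in 2afl/fl (adjusted p = 0.68).

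Gabra5, known from extrasynaptic receptors of the hippocampus, was the least abundant, with 74.1, 45.8, 55.7 and 76.8 normalised counts in 2aOKO O4 libraries, against 77.7, 72.6, 66.2 and 85.8 in 2aOKO OPC libraries. It had 44.4, 114 and 52.3 in 2afl/fl O4 libraries, against 69.0, 103 and 75.9 in 2afl/fl OPC libraries. The sorts overlapped in both genotypes. Gabra5 had a log2 fold change of -0.28 ± 0.29 in 2aOKO (adjusted p = 0.493) and -0.34 ± 0.33 in 2afl/fl (adjusted p = 0.489), and the intervals reached from -0.89 to 0.33 and from -1.04 to 0.37. Gabra5 rested on an estimated 42 to 119 reads per library, which gives a counting error of 9.17% to 15.4%, beside 1.3% to 5.74% for the other 6 subunits. The intervals of Gabra5 include the change seen for Gabra4.

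The sort differences were also read beside Gabrq, Gabre and Gabrg3, further subunits of the family. Gabrq was lower in O4 cells, with a log2 fold change of -0.67 ± 0.21 in 2aOKO (adjusted p = 0.0239) and -0.79 ± 0.24 in 2afl/fl (adjusted p = 0.0263). Leaving out 1 library ended its 2afl/fl call (OPC library 2, O4 library 1 or 3, adjusted p of 0.101 to 0.12) and its 2aOKO call (OPC library 3 or 4, O4 library 2 or 3, adjusted p of 0.0557 to 0.0838). In a fit of the 2afl/fl groups alone the 2afl/fl call was also lost, with an adjusted p of 0.119. Gabre was not called, with -0.44 ± 0.30 in 2aOKO (adjusted p = 0.293) and -0.68 ± 0.35 in 2afl/fl (adjusted p = 0.169). Gabrg3 was not called either, with 0.21 ± 0.13 in 2aOKO and -0.05 ± 0.15 in 2afl/fl.

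**Figure D2:**
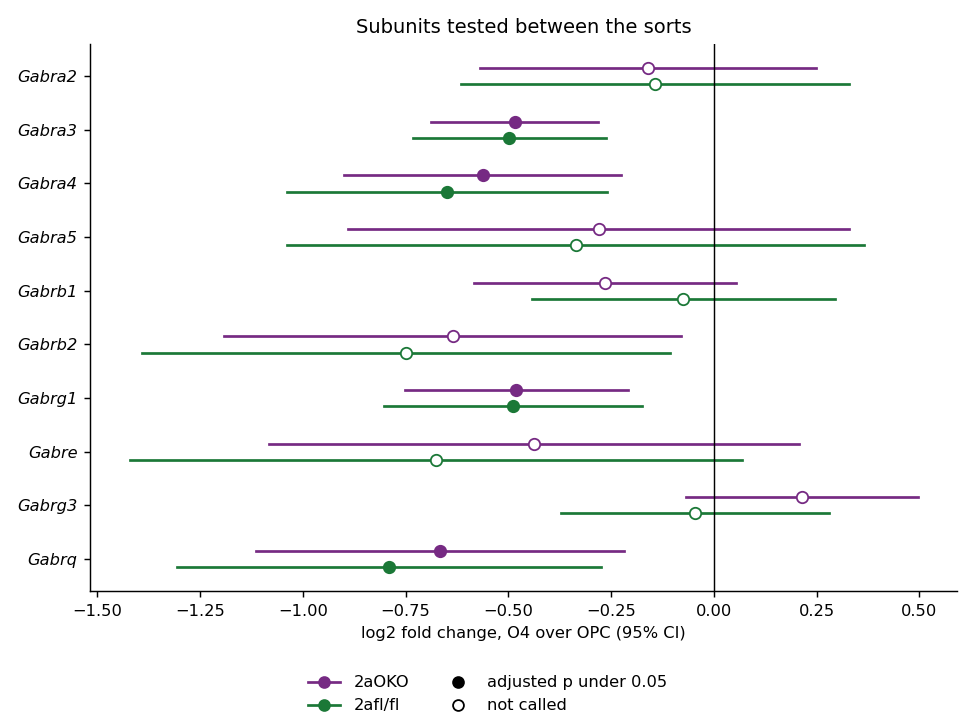
Log2 fold changes of O4 cells over OPCs (x axis, points with 95% confidence intervals) for the 7 subunits and for Gabre, Gabrg3 and Gabrq (y axis), in 2aOKO and 2afl/fl mice. Filled points have an adjusted p under 0.05, which holds for Gabra3, Gabra4, Gabrg1 and Gabrq in both genotypes.

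Levels were compared between genes per kilobase of merged exons. In 2aOKO cells the order of the 7 was Gabra3, Gabrb2, Gabrg1, Gabra2, Gabra4, Gabrb1 and Gabra5 in both sorts. Gabra3 had 845 ± 82.7 normalised counts per kilobase in O4 cells and 1179 ± 47.9 in OPCs, and Gabra5 at the other end had 21.2 ± 5.0 and 25.4 ± 2.78 (SD, n = 4 each). Gabrb2 and Gabrg1 were within their spread of each other, with 438 ± 141 and 364 ± 53.4 in 2aOKO O4 cells, and they changed places in 2afl/fl O4 cells, with 311 ± 48.0 for Gabrb2 and 360 ± 86.9 for Gabrg1. Gabra4 and Gabrb1 were also neighbours within their spread in 2afl/fl O4 cells, with 63.7 ± 21.5 and 52.8 ± 14.4. Taking the longest transcript as the length gave the same order in each group.

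Markers of the cells in the sorts moved with these differences. Of 9 OPC markers, 6 were lower and 1 higher in O4 cells of 2aOKO mice, and 5 were lower and 0 higher in those of 2afl/fl mice. Their summed level was 498686 to 615112 in 2aOKO O4 libraries, against 767157 to 888091 in 2aOKO OPC libraries, and 437108 to 658166 in 2afl/fl O4 libraries, against 764783 to 924468 in 2afl/fl OPC libraries. In these bulk samples fewer cells of a type and less RNA per cell cannot be told apart. The mean level in O4 cells over that in OPCs was 0.642 in 2aOKO and 0.65 in 2afl/fl for the OPC markers. The same ratio was 0.717 and 0.709 for Gabra3, 0.722 and 0.724 for Gabrg1, 0.675 and 0.663 for Gabra4, and 0.645 and 0.584 for Gabrb2. It was 0.835 and 0.85 for Gabra5, 0.828 and 0.97 for Gabrb1 and 0.907 and 0.932 for Gabra2.

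Gabrg1 per 1000 counts of OPC markers had 5.33 ± 0.47 in 2aOKO O4 cells and 4.75 ± 0.20 in 2aOKO OPCs, and 5.28 ± 0.18 in 2afl/fl O4 cells and 4.77 ± 0.10 in 2afl/fl OPCs. On the same scale Gabra4 had 0.714 ± 0.081 in 2aOKO O4 cells and 0.675 ± 0.066 in 2aOKO OPCs, and the libraries overlapped (SD, n = 4 each). Gabra3 had 6.19 ± 0.23 in 2aOKO O4 cells and 5.56 ± 0.31 in 2aOKO OPCs, and 6.31 ± 0.60 and 5.74 ± 0.59 in 2afl/fl (n = 3 each). Gabrb1 had 1.42 ± 0.11 in 2aOKO O4 cells and 1.10 ± 0.11 in 2aOKO OPCs. It had 1.36 ± 0.17 in 2afl/fl O4 cells and 0.918 ± 0.11 in 2afl/fl OPCs. In 2afl/fl, Gabra4 had 0.711 ± 0.11 in O4 cells and 0.715 ± 0.064 in OPCs. Relative to this sum the means of Gabra3 and Gabrg1 were above those of OPCs, and those of Gabra4 lay within 1 SD of them. The sum itself was lower in O4 cells, at 0.642 of its OPC level in 2aOKO and 0.65 in 2afl/fl. Any gene that falls less than the sum rises on this scale, so a rise is not particular to the subunits. The order depends on which marker is taken. The fitted level in O4 cells over that in OPCs was 0.715 in 2aOKO and 0.708 in 2afl/fl for Gabra3, and 0.717 and 0.713 for Gabrg1. It was lower for Pdgfra, the antigen of the OPC sort, with 0.509 and 0.511, and for Ptprz1, a receptor phosphatase of OPCs, with 0.646 and 0.609. It was higher for the lineage transcription factors, with 0.745 and 0.796 for Olig1, 0.832 and 0.812 for Olig2 and 1.27 and 1.26 for Sox10, and for the secreted protein C1ql1, with 0.836 in both genotypes. The remaining markers, Lhfpl3, Pcdh15 and Cspg4, fell further than Gabra3 and Gabrg1. The fitted ratio of Lhfpl3 was 0.672 in 2aOKO and 0.667 in 2afl/fl. Pcdh15 averaged 10607 normalised counts in 2aOKO O4 cells and 18666 in 2aOKO OPCs, and 10053.5 and 17574 in 2afl/fl. Cspg4 averaged 37671 and 68480 in 2aOKO, and 54323 and 85491.5 in 2afl/fl, where its SD in O4 cells was 38647. The differences between these markers and the subunits were not tested. The part of the OPC share in these differences was not tested.

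**Figure D3:**
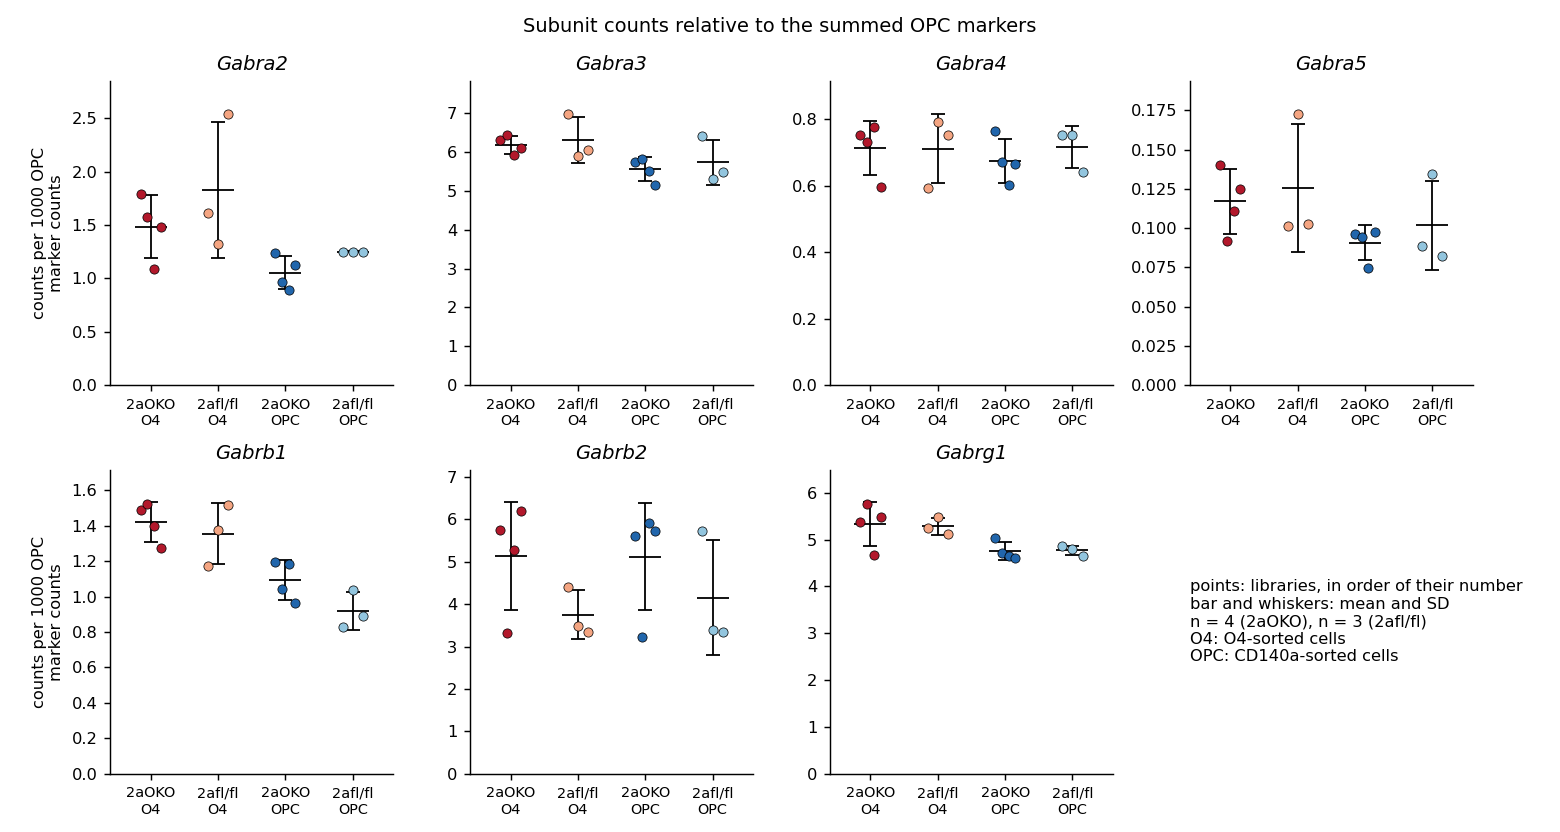
Normalised counts of each subunit per 1000 summed normalised counts of 9 OPC markers, Pdgfra and Ptprz1 among them, (y axis, linear, from 0) in O4 cells and OPCs of 2aOKO and 2afl/fl mice (x axis). Points are libraries and bars are means with SD (n = 4 for 2aOKO, n = 3 for 2afl/fl), and the O4 means of Gabra3 and Gabrg1 lie above the OPC means while those of Gabra4 lie within 1 SD of them.

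Libraries of 1 group differed in how many subunits were highest or lowest in them. In 2afl/fl O4 cells library 2 was the highest for 6 of 7 subunits and library 1 the lowest for 6 of 7. These libraries also had the highest and the lowest OPC marker sums of that group, 658166 and 437108, and library 2 had the lowest myelin sum, 349932. In 2aOKO O4 cells library 4, with the highest OPC marker sum of 615112, was the highest for 4 of 7 subunits, and the lowest were split between library 3 for 4 and library 2, with the lowest sum of 498686, for 3. In 2aOKO OPCs library 2, with the lowest sum of 767157, was the lowest for 6 of 7. Other marker sums also differed between libraries of a group. The sum of 10 astrocyte markers was the highest of its group in 2afl/fl O4 library 2 (58031) and 2aOKO O4 library 4 (58827). That of 9 endothelium and pericyte markers was highest in 2afl/fl O4 library 2 (58054) but not in 2aOKO O4 library 4 (37514). The part of any of these sums in the subunit values was not tested.

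Summed markers of neurons and fibroblasts also differed between the sorts, though single neuron markers went both ways. The summed level of 12 markers of interneurons and their progenitors was 11899 to 13827 in 2aOKO O4 libraries, against 15238 to 18432 in 2aOKO OPC libraries, and 9930 to 13375 in 2afl/fl O4 libraries, against 14428 to 16848 in 2afl/fl OPC libraries. That of 12 markers of other neurons was 3745 to 4258 in 2aOKO O4 libraries, against 4528 to 5402 in 2aOKO OPC libraries, and 3964 to 5117 in 2afl/fl O4 libraries, against 4728 to 5514 in 2afl/fl OPC libraries, where they overlapped. Of the 11 interneuron markers tested, 3 were lower in 2aOKO and 2 in 2afl/fl, and 0 were higher. Their estimates were above 0 for 3 of 11 in each genotype. The interneuron sum rested mostly on Erbb4, which averaged 10770.5 in 2aOKO OPCs, where the sum averaged 16882. A scarcer marker, Dlx6os1, averaged 66.4 in 2aOKO O4 cells and 40.2 in 2aOKO OPCs, and 37.0 and 22.6 in 2afl/fl. Of the other neuron markers, 3 were lower and 1 higher in 2aOKO, and 2 were lower and 2 higher in 2afl/fl. The summed level of 5 fibroblast markers was 7547 to 14550 in 2aOKO O4 libraries, against 22428.5 to 29053 in 2aOKO OPC libraries, and 10248 to 16105 in 2afl/fl O4 libraries, against 27846 to 38196 in 2afl/fl OPC libraries. Of these markers only Dlx5 was at 0 in some library. The part of these cells in the subunit differences was not tested.

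The other genes of GABA signalling moved in both directions between the sorts. Of 47 genes listed, all tested, 10 were higher and 12 lower in O4 cells of 2aOKO mice, and 8 were higher and 12 lower in those of 2afl/fl mice. Over all genes tested 17.6% were higher and 15.5% lower in 2aOKO, and 14.3% were higher and 12.2% lower in 2afl/fl. The counts of the list were not tested against these shares. The median log2 fold change of the 47 genes was -0.06 in each genotype. Abat, the transaminase that breaks GABA down, was higher, with 1.20 ± 0.15 in 2aOKO (adjusted p = 5.62e-05) and 1.08 ± 0.17 in 2afl/fl (adjusted p = 0.000781). Slc6a11, a GABA transporter known from astrocytes, was higher by 0.68 ± 0.13 in 2aOKO and 0.58 ± 0.15 in 2afl/fl. Of 10 astrocyte markers 4 were higher and 1 lower in O4 cells of each genotype, and their summed level was 46480 to 58827 in 2aOKO O4 libraries, against 46595 to 48621 in 2aOKO OPC libraries, and 38330 to 58031 in 2afl/fl O4 libraries, against 42589 to 47491 in 2afl/fl OPC libraries. Of 8 microglia markers 7 were higher in O4 cells of 2aOKO mice and 6 in those of 2afl/fl mice, and 0 were lower. The part of these cells in the differences of GABA genes was not tested. Gad1, which makes GABA from glutamate, was lower at -0.57 ± 0.14 in 2aOKO and -0.65 ± 0.16 in 2afl/fl. Without 2afl/fl O4 library 1 the 2afl/fl call of Gad1 was lost (adjusted p = 0.0553). Gad1 is also 1 of the interneuron markers above.

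Slc6a13, another GABA transporter, had log2 fold changes of -1.44 ± 0.23 in 2aOKO and -1.53 ± 0.26 in 2afl/fl, and Aldh1a1, an aldehyde dehydrogenase that can yield GABA, had -0.99 ± 0.20 and -1.12 ± 0.23. The fibroblast marker sums given above were lower in the same libraries, and their part was not tested. The chloride carriers that set the direction of the GABA current moved apart. Slc12a2 (NKCC1), which loads cells with chloride, was higher by 0.65 ± 0.13 in 2aOKO (adjusted p = 0.00225) and 0.60 ± 0.15 in 2afl/fl (adjusted p = 0.012). Slc12a5 (KCC2), the neuronal chloride extruder, was lower at -0.62 ± 0.13 in 2aOKO (adjusted p = 0.00235) and -0.62 ± 0.15 in 2afl/fl (adjusted p = 0.00846).

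Among 23 genes of receptor scaffold, assembly and transport, 7 were higher and 5 lower in O4 cells of 2aOKO mice, and 5 were higher and 5 lower in those of 2afl/fl mice. These counts stand beside 17.6% higher and 15.5% lower of all genes in 2aOKO, and 14.3% and 12.2% in 2afl/fl. Plcl1, which binds the receptor and GABARAP, was higher by 0.86 ± 0.11 in 2aOKO and 0.67 ± 0.13 in 2afl/fl, and Trak2, a kinesin adaptor that binds beta subunits, by 0.68 ± 0.11 and 0.62 ± 0.13. Shisa7, an auxiliary subunit of the receptor, was lower at -0.71 ± 0.13 in 2aOKO and -0.75 ± 0.15 in 2afl/fl. Lhfpl3, a relative of the auxiliary subunit Lhfpl4 and also 1 of the OPC markers, was lower at -0.57 ± 0.11 and -0.58 ± 0.13. In a fit of the 2afl/fl groups alone the 2afl/fl calls of Gad1, Lhfpl3, Plcl1, Slc12a2, Slc12a5, Slc6a11 and Trak2 were lost, with adjusted p of 0.0523 to 0.095, and that of Slc6a11 was also lost with equal totals (adjusted p = 0.058).

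By limma 0 of the 7 subunits were called between the genotypes in OPCs and 0 in O4 cells. At an adjusted p under 0.05 the share of all genes called was 0% in OPCs and 0% in O4 cells, so these counts say nothing particular about the subunits. The looser call of the study set a minimum fold change beside an unadjusted p under 0.05, on DESeq2 results. The same thresholds on the limma results called 1.05% of all genes in OPCs and 1.59% in O4 cells, and 0 of 7 subunits in each. Without a fold minimum, 251 genes in OPCs and 450 in O4 cells had an unadjusted p under 0.05, and 0 of them were subunits of the 7. The group ranges of all 7 overlapped between the genotypes in both sorts, and 4.75% of all genes in OPCs and 2.67% in O4 cells had ranges that did not overlap.

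The largest differences were those of Gabrb2, with 1.36-fold the 2afl/fl level in 2aOKO O4 cells (95% confidence interval 0.898 to 2.07, log2 fold change 0.45 ± 0.28, adjusted p = 0.999) and 1.26-fold in 2aOKO OPCs (0.83 to 1.91, log2 fold change 0.33 ± 0.28). Gabrb1 was at 1.22-fold in 2aOKO OPCs (0.957 to 1.54, log2 fold change 0.28 ± 0.16) and 1.07-fold in 2aOKO O4 cells (0.839 to 1.35). Gabra2 was at 0.842-fold in 2aOKO O4 cells (0.62 to 1.14) and 0.852-fold in 2aOKO OPCs (0.627 to 1.16). Without all 4 libraries numbered 3 the log2 fold change of Gabra2 in O4 cells turned to 0.17, and without 2afl/fl O4 library 1 that of Gabrb1 in O4 cells turned to -0.14. With each library left out in turn, the log2 fold change of Gabrb2 in O4 cells ran from 0.27 (without 2aOKO O4 library 4) to 0.68 (without 2aOKO O4 library 2), and that in OPCs from 0.16 (without 2afl/fl OPC library 2) to 0.58 (without 2aOKO OPC library 2). That of Gabrb1 in OPCs was 0.17 without 2afl/fl OPC library 1. That of Gabra2 in O4 cells ran from -0.44 (without 2afl/fl O4 library 1) to -0.0065 (without 2afl/fl O4 library 3), and that in OPCs was -0.15 without 2afl/fl OPC library 3.

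The narrowest intervals were those of Gabra3, at 0.997-fold in 2aOKO O4 cells (0.856 to 1.16) and 0.988-fold in 2aOKO OPCs (0.848 to 1.15), and of Gabrg1, at 1.02-fold (0.832 to 1.249) and 1.01-fold (0.827 to 1.24). The log2 fold changes of Gabra4 and Gabra5 lay between -0.11 and 0.03. In the test of whether the genotype effect differed between O4 cells and OPCs, 0 subunits and 0% of all genes were called by limma, with 132 genes and 0 subunits at an unadjusted p under 0.05. The estimates of this difference ran from -0.19 for Gabrb1 to 0.11 for Gabrb2, and the widest interval, that of Gabra5, was -0.87 to 0.99. Of the 47 other genes of GABA signalling 0 were called between the genotypes in either sort.

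**Figure D4:**
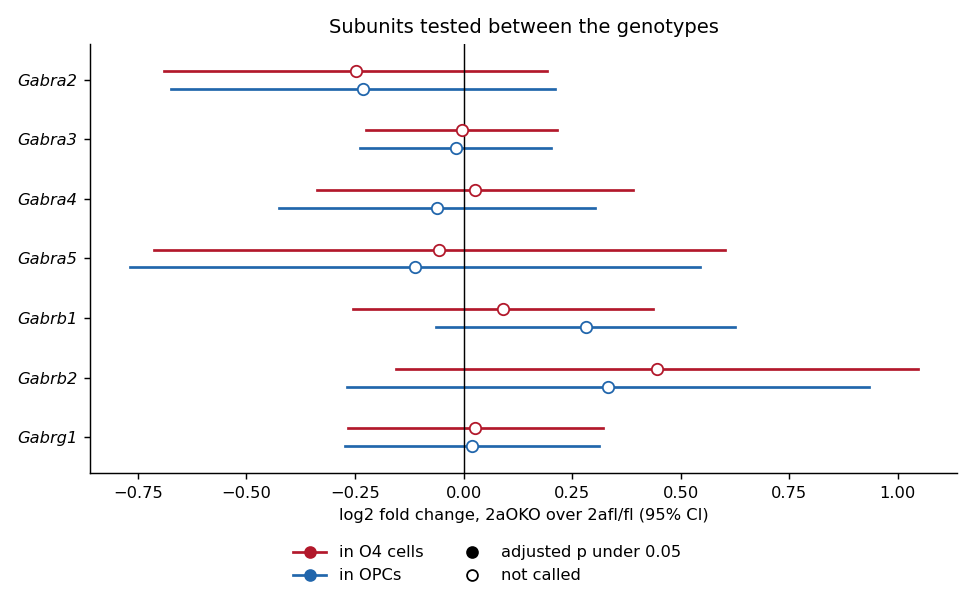
Log2 fold changes of 2aOKO over 2afl/fl (x axis, points with 95% confidence intervals) for the 7 subunits (y axis) in O4 cells and in OPCs. All points are open because none had an adjusted p under 0.05, and every interval includes 0.

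The genes with the most similar pattern over the 14 libraries were searched for the 3 called subunits. Likeness was the root mean square difference of log2 values after centring each gene, over 13697 genes with a mean of at least 50. The nearest to Gabra3 were Gpm6a (0.0465), a membrane glycoprotein of neurons, and Syt16 (0.0569). The nearest to Gabrg1 were Ptprf (0.0555), a receptor tyrosine phosphatase, and Cntln (0.0679). The nearest to Gabra4 was Rgs7bp (0.11). All these patterns hold the difference between the sorts, which many genes share, so they are descriptions.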

How the data were processed

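RNA of 14 libraries was sequenced in paired-end mode. STAR 2.7.8a, mm39, RefSeq genes, Partek Flow 10 and DESeq2 are named by the submitters' notes and the study's methods. The deposited signal is the count of each gene after the authors divided it by a median-ratio size factor. The deposited values are normalised, so a test on the log scale was used and not a count model. Most low values were close to whole reads. Of values up to 20, 92.8% to 94.8% lay within 0.05 of a whole multiple of the smallest step (0.772 to 1.19), and the rest did not. By that step, depth was about 32952583 to 44185413 reads.

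limma 3.58.1 (R 4.3.3, data.table version 1.17.8) fitted log2(value + 1) over all 14 libraries with an intensity trend, two-sided, with Benjamini-Hochberg adjustment over 15565 genes; 2790 genes with means under 10 were left out. The code was tested on simulated data. Same-numbered OPC and O4 libraries of a genotype deviated together (r of 0.16 to 0.328, 7 pairs), which comes from the data and not from the labels, so they were paired in an alternative. Between genotypes r was 0.0604 to 0.299 over 12 pairs, which overlaps the range within genotypes, and numbers were not taken as pairs.

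Exon lengths came from GENCODE M21 on GRCm38, an earlier build than that of the files, matched by symbol. Python 3.11.15, pandas 2.3.3 and matplotlib 3.10.9 were used. All 7 subunits, other subunits and up to 4 genes per pathway list with the smallest p between the sorts in 2aOKO could be named, and some further subunits are not reported here. Members, lists and markers were chosen with earlier results of these data known. Alternatives were other pseudocounts, no filter, equal totals, quantile normalisation, only the groups compared, replicate blocks, no trend and each library left out.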

Additional observations from a re-analysis of the deposited data

Results flagged for a closer look

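A single value stood apart within its group of 4. Gabrg1 had 3625 normalised counts in 2aOKO OPC library 2, while the other 3 libraries of that group lay between 4051 and 4122. Its gap to the nearest of them was 0.857 of the range of the group, above the 95% critical value of Dixon's test. The 7 subunits were tested in 2 groups of 4, 14 groups in all, and chance flags about 1 in 20. The same library had the lowest OPC marker sum of its group, 767157, and the lowest value for 6 of 7 subunits. The part of that sum in the low value was not tested.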

How the results depend on the processing

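Between the sorts the number of subunits called in 2afl/fl was 3, beside 12.2% of all genes called lower. It was 0 beside 1.41% in a fit of the 2 compared groups alone, and 1 to 3 beside 6.6% to 18.3% with each library left out. Without all 4 libraries numbered 3, chosen after seeing the data, it was 0 beside 2.3% in 2afl/fl and 1 beside 9.3% in 2aOKO, where it was 3 to 4 beside 11.7% to 15.2% with each library left out. In a fit of the 2 2aOKO groups alone 4 subunits were called lower, beside 19.6% of all genes. In the fit of all 14 libraries 3 were called in 2aOKO, beside 15.5%. The cause of these changes was not tested. With the replicate block within each genotype the log2 fold change of Gabrb2 was -0.64 in 2aOKO and -0.75 in 2afl/fl, as without it, and 4 subunits were called in each, beside 19.1% and 16.3% of all genes called lower. With the replicate number as a block over both genotypes adjusted p of Gabrb2 was 0.0194 in 2aOKO and 0.0218 in 2afl/fl. The blocks changed no other call.

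Scaling to equal totals moved the median of all genes by -0.12 in 2aOKO and -0.11 in 2afl/fl. The share of lower calls among all genes called was 66.3% in 2aOKO and 65.4% in 2afl/fl, against 46.8% and 46.1% as deposited. Gabrb2 was then called, with adjusted p of 0.04 in 2aOKO and 0.0485 in 2afl/fl. The fit of the interaction with only the compared groups was not run, since it needs all 4 groups.

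Some differences that were not called changed sign with a library left out. The log2 fold change between the sorts ran from -0.25 to 0.011 for Gabra2 in 2aOKO, from -0.39 to 0.053 for Gabra2 in 2afl/fl, from -0.25 to 0.16 for Gabrb1 in 2afl/fl and from -0.12 to 0.064 for Gabrg3 in 2afl/fl. Between the genotypes in O4 cells that of Gabrb1 ran from -0.14 to 0.27, and that of Gabra2 was 0.17 without all 4 libraries numbered 3. The genotype estimates given only as ranges changed sign in 7 of 64 fits in OPCs and 10 of 64 in O4 cells, and the estimates of how far the genotype effect in O4 cells differed from that in OPCs in 31 of 161, between -0.42 and 0.46, and 0 were called in any. Counting error was largest for Gabra5, with 42 to 119 estimated reads per library. The other limits are the 3 and 4 libraries per group.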
